A study of Mus musculus with 16 samples.

Results

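Control cells of an induced pluripotent stem cell (iPSC) differentiation toward midbrain dopaminergic (mdDA) neurons were compared with primary mdDA neurons of the mouse embryo, on log2 levels from Affymetrix gene arrays. The comparison uses 11 of the 16 arrays: 5 control arrays, which the labels call biological replicates, and 6 primary arrays. Of the primary arrays, 3 are technical replicates of embryonic day E13.5 and 3 of E14.5, so each stage counts as 1 sample and the comparison rests on 5 control and 2 primary samples. The control cultures were not given the WNT1 and DKK3 proteins that another set of cultures received, and those treated arrays are not compared here. Every cell of both groups had the genotype Pitx3GFP/+, in which 1 allele of Pitx3 carries green fluorescent protein (GFP), on the mixed strain C57BL/6 x 129/Ola. The series' design text says that GFP-positive cells were sorted in both groups, while the labels of single samples mention sorting for the primary cells alone, which came from the ventral midbrain. The labels give no developmental stage for the control cells. The number of iPSC lines and of embryos pooled per stage is not given in the sources used here. Nothing says that the 5 replicates were separate cultures, so a p-value here measures only the spread among the samples fitted. That spread comes from the control arrays, the treated arrays and the gap between the 2 stages. Within a stage there is no replicate sample. The names neuron and dopaminergic follow the labels, and the levels below show how far the control arrays carry such genes.

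Midbrain dopaminergic neurons arise from the floor plate of the ventral midbrain, where Sonic hedgehog and Wnt signals set up the transcription factors of the lineage. Those factors turn on the enzyme tyrosine hydroxylase, which makes the precursor of dopamine, the transporters that load dopamine into vesicles and take it up again, and the proteins of the axon and synapse. Pitx3 is best known in these neurons and in the lens and skeletal muscle, so that a reporter at its locus can mark cells of other tissues too.

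In the control cells, genes of dopamine neurons and of neurons in general were lower than in primary cells. Genes of stroma, epithelium, astrocytes and radial glia, proliferation, interferon and metal responses were higher. Of 19938 genes, 8346 (41.9%) were called different with limma at a threshold of 0.05 for the adjusted p. Of all genes, 3855 (19.3%) were called higher and 4491 (22.5%) lower in control cells, and these shares are the background for every list below. A difference of at least 1 on the log2 scale, or 2-fold, was reached by 2114 called genes (10.6%) in the higher and 1577 (7.91%) in the lower direction. At 8-fold or more these counts were 277 and 170, and at 32-fold or more 28 and 4. All 5 control arrays lay above all 6 primary arrays for 3174 genes (15.9%) and below them for 3244 (16.3%). More genes were called lower, but fewer of them by 2-fold or more, and the median difference over all genes was -0.11. The split of the calls depends on the scaling. Higher genes were 46.2% of the calls on the deposited values, 42.1% after quantile normalization was run again and 25.6% after each array was centred on its median. That centring moved the median difference of all genes to -0.30.

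Control array 5 stood apart from the other control arrays and nearer to the primary cells. Across genes, which are not independent replicates, its correlation with the primary mean was 0.865, and that of the other control arrays lay between 0.83 and 0.842. Over genes higher in primary cells by 1 or more, array 5 lay, at the median, 18.05% of the way from the mean of the other 4 control arrays to the primary mean. The same measure for arrays 1 to 4 lay between -7.22% and -2.09%. Array 5 was the control array nearest to primary cells for 898 of the 1577 genes called lower by 2-fold or more (56.9%) and for 851 of the 2114 called higher (40.3%). Over all 19938 genes, array 5 was the highest control array for 24.2% and the lowest for 28.3%. Results that rest on this array are given with and without it. In such bulk samples, fewer cells of a type and less RNA per cell cannot be told apart.

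Among genes that make, store, take up and break down dopamine, calls went both ways, with the central enzymes and both carriers lower on the control arrays. Of 14 measured genes in this list, 6 were called lower and 4 higher, beside 22.5% and 19.3% of all genes, with a median difference of -0.45. The 6 lower genes were Th, Ddc, Slc18a2, Slc6a3, Gch1 and Drd2. Th, the gene of tyrosine hydroxylase, sets the pace of dopamine synthesis, and its level on control arrays 1 to 5 was 6.17, 5.75, 5.34, 5.90 and 8.52. On the 3 E13.5 arrays it was 11.34, 11.48 and 10.52, and on the 3 E14.5 arrays 11.35, 11.53 and 11.16. It stood highest among control arrays on array 5, more than 2 units above the others and still below every primary array. The difference was -4.90 ± 0.99 (SE; limma, adjusted p = 0.00175), or 29.8-fold lower, and without array 5 the control mean was 5.79 ± 0.35 (SD, n = 4). Ddc, the aromatic amino acid decarboxylase that makes dopamine, was at 5.95, 5.98, 5.63, 5.75 and 7.67 on the control arrays, at 10.18, 10.26 and 10.44 on E13.5 arrays and at 10.01, 9.94 and 10.47 on E14.5 arrays. Here, too, array 5 lay above the other control arrays and below all primary arrays, with a difference of -4.02 ± 0.67 (limma, adjusted p = 0.000446).

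Both dopamine carriers had their highest control level on array 5. Slc18a2, the transporter that fills synaptic vesicles with monoamines, was at 5.04, 4.95, 5.12, 5.52 and 7.44 on the control arrays, 10.63, 10.67 and 10.34 at E13.5 and 10.19, 9.95 and 10.11 at E14.5. It was 26-fold lower in control cells (limma, adjusted p = 0.000956), with no overlap of the groups. Slc6a3, the dopamine transporter of the plasma membrane, was at 5.27, 5.02, 5.09, 4.95 and 8.44, against 8.54, 9.13 and 8.58 at E13.5 and 9.24, 9.22 and 8.88 at E14.5. Its level on array 5 came close to the lowest primary array, while arrays 1 to 4 stayed more than 3 units below every primary array. With all arrays the difference was -3.18 ± 1.11 (limma, adjusted p = 0.0367), and it did not pass against either stage alone, with adjusted p of 0.167 for E13.5 and 0.129 for E14.5. Without any 1 of control arrays 1, 2, 3 or 4 it also did not pass (limma, adjusted p = 0.0623 to 0.0664), with differences of -3.06 to -2.98. Without array 5, the control array nearest to the primary level, it still passed. Gch1, the first enzyme of the cofactor that tyrosine hydroxylase needs, was at 6.33, 5.35, 5.57, 6.31 and 5.48 on control arrays and between 8.31 and 9.04 on primary arrays, and here array 5 did not stand above the rest. Drd2, the dopamine autoreceptor, was lower, at -2.61 (limma, adjusted p = 0.000182). The 4 higher genes were those of dopamine breakdown and of cofactor handling. Maoa and Maob, the monoamine oxidases, differed by 1.21 and 0.95 (limma, adjusted p = 6.76e-05 and 0.00476), and Spr and Qdpr, enzymes that make and recycle the same cofactor, by 0.89 and 0.53 (limma, adjusted p = 0.00548 and 0.0244). Over 16 alternative settings Qdpr lost its call in 3 and Spr in 1, while Maoa and Maob kept theirs.

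**Figure D1:**
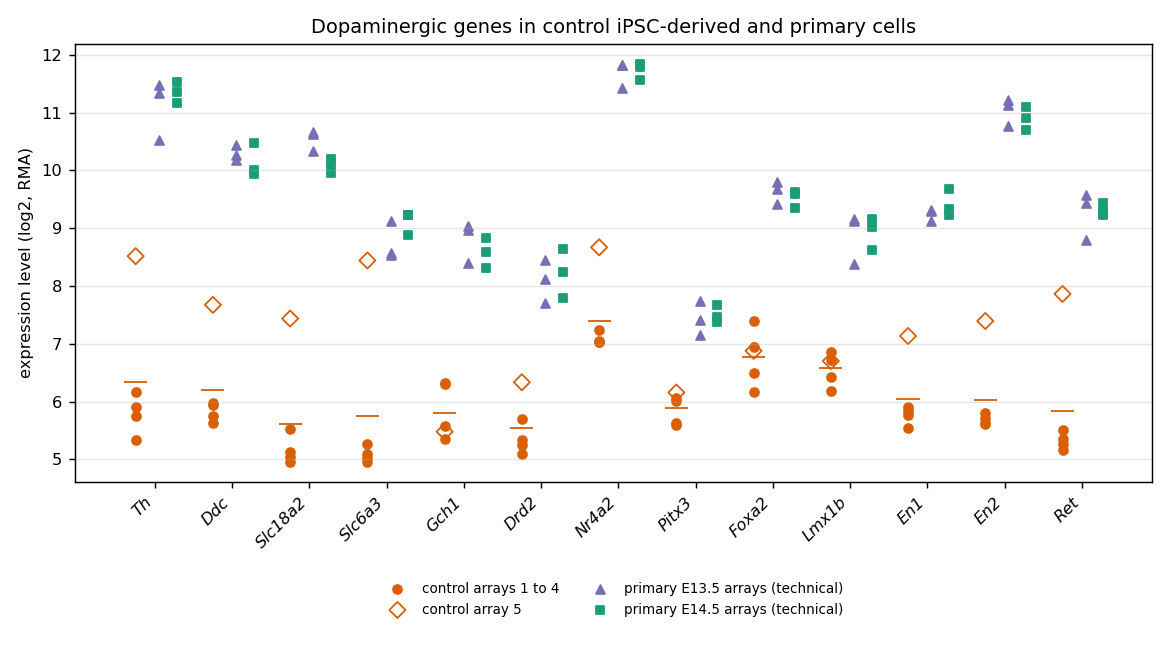
Log2 expression levels of 13 dopaminergic genes on each array: control arrays 1 to 4 (orange dots), control array 5 (open diamonds), the 3 technical arrays of E13.5 (triangles) and the 3 of E14.5 (squares), with a line at the control mean of 5 arrays. Every control array lies below every primary array for all 13 genes, and array 5 is the highest control array for most of them, with Th at 8.52 against at most 6.17 on the others.

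Transcription factors of the lineage were lower as a group. Of 20 measured members, 17 were called lower (85.0%, against 22.5% of all genes) and 1 higher, with a median difference of -2.67, and the 5 control arrays lay below all 6 primary arrays for the 17 lower members. The engrailed gene En2, which patterns the midbrain and supports the survival of these neurons, was at 5.72, 5.81, 5.63, 5.61 and 7.39 on control arrays, against 11.22, 11.13 and 10.77 at E13.5 and 11.11, 10.90 and 10.71 at E14.5. Its difference was -4.94 ± 0.53 (limma, adjusted p = 1.38e-05), the largest of the list, and that of En1 was -3.29 (limma, adjusted p = 0.000108). Nr4a2 (Nurr1), needed for the transmitter phenotype, was at 7.02, 7.03, 7.24, 7.05 and 8.67 on control arrays, at 11.83, 11.82 and 11.42 at E13.5 and at 11.85, 11.79 and 11.56 at E14.5. Arrays 1 to 4 were within 0.3 of each other and array 5 lay above them, and the difference was -4.31 ± 0.58 (limma, adjusted p = 7.95e-05). Pitx3, the gene whose locus carries the reporter, was at 6.06, 5.60, 6.01, 5.62 and 6.16 on control arrays, 7.42, 7.74 and 7.16 at E13.5 and 7.38, 7.67 and 7.46 at E14.5. It was 2.99-fold lower in control cells without overlap (limma, adjusted p = 2.14e-05), and array 5, at 6.16, was close to array 1. The array does not measure GFP, so the reporter itself has no value here.

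The factors that act earliest, in the floor plate, were lower, and array 5 did not stand apart for them. Foxa2, a forkhead factor of the floor plate, was at 6.17, 6.50, 6.94, 7.39 and 6.88 on control arrays and between 9.35 and 9.80 on the primary arrays, a difference of -2.80 (limma, adjusted p = 2.71e-05). Its relative Foxa1 differed by -3.36 (limma, adjusted p = 2.65e-07), and Lmx1b, a LIM homeobox factor of the floor plate and its neurons, by -2.34 (limma, adjusted p = 8.57e-07). For these 3 genes array 5 was within 0.5 of the other control arrays' mean. Ebf3, a factor of migrating and differentiating neurons, was lower, at -4.61 (limma, adjusted p = 7.98e-06). The 1 higher member was Msx1, a homeobox gene of dopaminergic progenitors that is also active in many non-neural tissues. It stood at 8.53, 8.43, 8.43, 8.16 and 7.90 in control cells, against 6.77, 6.62 and 6.49 at E13.5 and 6.25, 5.99 and 5.87 at E14.5 (difference 1.96, limma, adjusted p = 3.02e-05). Sox6, a factor of substantia nigra neurons, was at 7.03 ± 0.30 (SD, n = 5) in control cells and 7.21 and 7.23 at the stages, a difference of -0.19 with a 95% interval from -0.65 to 0.26 that did not pass.

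Receptors and maintenance genes of dopamine neurons were lower too, and array 5 stood above the other control arrays for nearly all of them. Of 18 measured members, 16 were called lower (88.9%) and 1 higher, with a median difference of -2.71. Array 5 was the highest control array for 16 of 18 (88.9%, against 24.2% of all genes). Slc10a4, a vesicle protein of monoaminergic and cholinergic neurons, had the largest lower difference of all genes. It was at 5.24, 5.29, 5.17, 5.36 and 7.20 on control arrays, 11.36, 11.37 and 11.23 at E13.5 and 11.44, 11.38 and 11.14 at E14.5, 50.8-fold lower (limma, adjusted p = 4.96e-05). Ret, the receptor for the survival factor GDNF, was at 5.26, 5.16, 5.35, 5.52 and 7.86 on control arrays and between 8.80 and 9.57 on primary arrays (difference -3.46, limma, adjusted p = 0.00673), and its co-receptor Gfra1 differed by -3.21 (limma, adjusted p = 7.25e-05). Slc17a6, the vesicular glutamate transporter that young dopamine neurons also use, was lower, at -4.10 (limma, adjusted p = 0.000253). Chrnb3, a nicotinic receptor subunit, did not pass: it was at 4.74, 4.68, 4.69, 4.47 and 7.54 on control arrays against 7.02 to 7.68 on primary arrays (limma, adjusted p = 0.113). Array 5 was inside the primary range, and without it the control level was 4.65 ± 0.12 (SD, n = 4) and the gene passed (limma, adjusted p = 0.0261). Aldh1a1, a retinal-making enzyme of ventral dopamine neurons, passed narrowly (difference -2.41, limma, adjusted p = 0.0499), with array 5 at 8.99 overlapping E13.5. It did not pass without any 1 of arrays 1 to 4 (limma, adjusted p = 0.077 to 0.0876) and still passed without array 5. The member called higher was Ntrk2, the receptor of the neurotrophin BDNF, with a difference of 0.81 (limma, adjusted p = 0.0106).

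Floor plate and hedgehog genes did not move one way. Of 18 measured, 5 were called higher (27.8%) and 6 lower (33.3%), with a median of -0.11. Shh itself was lower, at 5.64 ± 0.18 (SD, n = 5) in control cells against 6.96 and 6.78 at E13.5 and E14.5 (limma, adjusted p = 1.18e-05). The signal transducers Smo, Gli2 and Gli3 were higher, by 1.38, 0.82 and 1.65 (limma, adjusted p = 1.76e-05, 0.00184 and 0.000653), as were the hedgehog co-receptors Boc and Gas1, by 1.54 and 0.95 (limma, adjusted p = 0.0235 and 0.00477).

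Genes shared by all neurons were lower, from the cytoskeleton to the synapse. In the list of the neuronal cytoskeleton and growth cone, 33 of 35 measured genes were called lower (94.3%, against 22.5% of all genes) and 0 higher, with a median difference of -2.76. The list's median level lay between 7.08 and 8.82 on the control arrays and between 10.58 and 10.73 on the primary arrays, and array 5 held the 8.82. Dcx (doublecortin), a microtubule protein of migrating young neurons, was at 6.03, 5.87, 5.61, 5.30 and 7.37 on control arrays, 11.18, 10.90 and 10.81 at E13.5 and 11.03, 10.87 and 10.74 at E14.5. All control arrays were more than 3 units below all primary arrays, with array 5 the highest, and the difference was -4.88 ± 0.66 (limma, adjusted p = 8.3e-05). Tubb3, the neuronal beta-tubulin, was at 7.28, 7.30, 7.31, 8.05 and 9.87 on control arrays and between 11.70 and 12.04 on primary arrays (limma, adjusted p = 0.00264). Gap43, a growth cone protein, was at 8.50, 7.32, 7.38, 7.60 and 10.76 on control arrays and between 11.50 and 11.71 on primary arrays (limma, adjusted p = 0.0249). For Tubb3 and Gap43, array 5 lay nearer to the primary arrays than to the mean of the other 4 control arrays, which was 7.48 ± 0.38 and 7.70 ± 0.54 (SD, n = 4). The intermediate filament gene Ina differed by -5.00 (limma, adjusted p = 8.85e-05), and the stathmin Stmn2 by -4.56 (limma, adjusted p = 0.00231).

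Genes of neuronal RNA binding and splicing, a list that also holds the repressor Rest, were mostly lower. Of 21 measured members, 18 were called lower and 3 higher, with a median of -2.37. Neuronal splicing and RNA-stability factors were among the lower ones: Elavl2 and Elavl4 of the Hu family differed by -4.48 and -4.30 (limma, adjusted p = 9.44e-06 and 0.000525), and Nova1 by -3.12 (limma, adjusted p = 9.54e-06). Srrm4, which promotes the inclusion of neuronal microexons, was at 5.94, 5.55, 5.65, 5.64 and 5.79 on control arrays, against 9.15, 9.43 and 8.42 at E13.5 and 8.67, 8.84 and 8.71 at E14.5. Its control arrays, array 5 included, lay within 0.4 of each other, and it was 8.92-fold lower (limma, adjusted p = 1.23e-08). The 3 higher genes were Rest, Ptbp1 and Mbnl2. Rest, the repressor that silences neuronal genes outside neurons, was at 8.56, 8.58, 8.46, 8.47 and 8.22 on control arrays, 5.88, 6.02 and 6.18 at E13.5 and 5.93, 5.97 and 5.50 at E14.5. Array 5 was the lowest control array for Rest, yet 2 units above the highest primary array, and the difference was 2.54 ± 0.17 (limma, adjusted p = 2.86e-07). Ptbp1, the splicing repressor of non-neuronal cells and progenitors, was higher by 1.43 (limma, adjusted p = 2.7e-05), and Ptbp2, the paralogue that replaces it in neurons, was lower, at -2.37 (limma, adjusted p = 1.41e-06). Ptbp1 was at 10.04 ± 0.19 (SD, n = 5) in control cells, and Ptbp2 at 7.92 ± 0.25, with no overlap with primary arrays for either.

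Synaptic and membrane genes were lower in most members. Among 36 synaptic vesicle and exocytosis genes, 27 were called lower and 1 higher, with a median of -1.83. Rab3c, a vesicle GTPase, differed by -5.23 (limma, adjusted p = 8.19e-05) and Syt4, a synaptotagmin, by -4.77 (limma, adjusted p = 0.000102). Snap25, of the fusion complex, differed by -3.46 (limma, adjusted p = 0.00583), and the single higher call was Unc13a, a vesicle priming factor, by 0.49 (limma, adjusted p = 0.0215). The probe sets of Unc13a disagreed, and their mean gave -1.06 (limma, adjusted p = 0.0222). Of 34 ion channel genes of neurons, 30 were called lower and 0 higher, with a median of -1.48, led by the leak potassium channel Kcnk9 at -5.41 (limma, adjusted p = 1.81e-07). Of 27 receptors for glutamate, GABA and glycine, 22 were called lower and 0 higher, with a median of -1.32, led by the AMPA receptor subunit Gria2 at -4.34 (limma, adjusted p = 0.000305). In the list of granins and peptide processing, 8 of 12 were called lower, with a median of -1.38 and Scg5, a chaperone of prohormone convertase, at -3.30 (limma, adjusted p = 2.02e-05). Cck, the neuropeptide cholecystokinin, and Cbln1, a secreted organiser of synapses, were among the 12 largest lower differences, at -4.60 and -4.84 (limma, adjusted p = 3.51e-07 and 2.37e-06). Axon guidance and adhesion genes were more mixed: 23 of 39 were called lower and 6 higher, with a median of -1.13. Dcc, the netrin receptor, was lower, at -4.57 (limma, adjusted p = 7.43e-05), while the repellents Slit3 and Sema3a were higher by 1.99 and 1.82 (limma, adjusted p = 3.1e-05 and 0.00796). Against E13.5 alone 1 guidance gene was called higher in place of 6.

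Markers of other neuron types were not higher on the control arrays. Of 19 measured, 6 were called lower and 0 higher, with a median of -0.22. Gad2 and Slc32a1, which make GABA and load it into vesicles, were the 2 with large differences. Gad2 was at 5.31, 4.88, 5.02, 4.88 and 5.79 on control arrays, 9.34, 8.71 and 8.54 at E13.5 and 9.40, 8.95 and 9.21 at E14.5 (difference -3.85, limma, adjusted p = 6.1e-06), and Slc32a1 differed by -2.81 (limma, adjusted p = 2.2e-06). After each array was centred on its median 14 of these 19 genes were called lower.

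**Figure D2:**
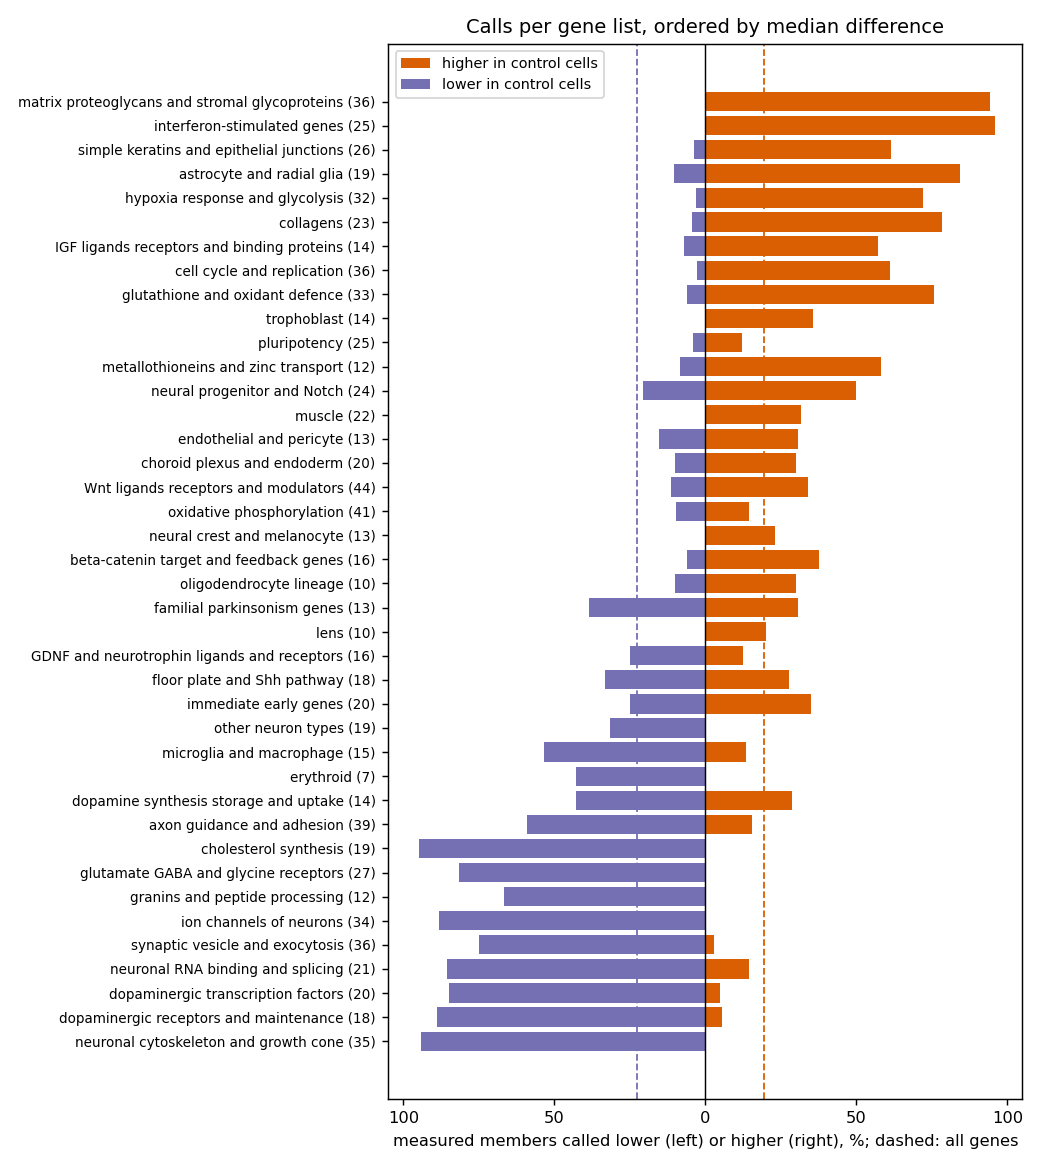
Share of the measured members of each of 40 gene lists that limma called lower (bars to the left) or higher (bars to the right) in control cells, in percent, with the number of measured members in brackets and the lists ordered by median difference. The dashed lines mark the shares over all genes, 22.5% lower and 19.3% higher; lists of neurons lie at one end and matrix and interferon-stimulated genes at the other.

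Genes of connective tissue were among the highest in control cells. Of 36 measured genes of matrix proteoglycans and stromal glycoproteins, 34 were called higher (94.4%, against 19.3% of all genes) and 0 lower, each of the 34 by more than 2-fold, with a median difference of 3.45. The list's median level was between 9.21 and 9.95 on the control arrays and between 5.84 and 6.10 on the primary arrays. Dcn (decorin), a collagen-binding proteoglycan, was at 11.25, 11.70, 11.36, 11.17 and 12.01 on control arrays, against 5.77, 5.39 and 5.42 at E13.5 and 6.04, 5.94 and 6.34 at E14.5. No control array came within 4 units of a primary array, and the difference was 5.68 ± 0.28, or 51.2-fold (limma, adjusted p = 3.27e-08). S100a6, a calcium-binding protein of fibroblasts and epithelia, was at 12.09, 11.50, 11.94, 12.05 and 11.50 on control arrays and between 4.44 and 5.78 on primary arrays, 96.4-fold higher (limma, adjusted p = 2.36e-09). The leucine-rich proteoglycan Ogn differed by 5.65 and the matrix glycoprotein Efemp1 by 5.62 (limma, adjusted p = 2.43e-06 and 7.27e-08). Lgals3bp, a secreted glycoprotein that binds galectin-3, is in no list and was among the 12 largest higher differences, at 5.61 (limma, adjusted p = 5.75e-10). Fn1, fibronectin, differed by 4.98 (limma, adjusted p = 1.2e-10). Collagens followed, with 18 of 23 called higher and 1 lower and a median of 1.68. Col1a2, a chain of fibrillar collagen I, was at 9.96, 10.12, 9.89, 9.29 and 10.39 on control arrays and between 5.66 and 6.51 on primary arrays (difference 3.76, limma, adjusted p = 1.48e-06), and the lower one was Col25a1, a membrane collagen of neurons, at -0.47 (limma, adjusted p = 0.00627). Array 5 was the highest control array for 17 of 23 collagens (73.9%, against 24.2% of all genes). It was also the highest for 27 of 35 genes of the neuronal cytoskeleton and growth cone, but for 5 of 19 markers of other neuron types.

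Epithelial genes were higher too, and here array 5 was the lowest. Of 26 simple keratin and epithelial junction genes, 16 were called higher and 1 lower, with a median of 2.20. Without the arrays numbered 5 the higher count was 22. Krt18, a keratin of simple epithelia, was at 11.99, 11.07, 11.69, 12.26 and 10.92 on control arrays, 6.28, 5.96 and 5.55 at E13.5 and 5.63, 6.46 and 5.58 at E14.5, 51.2-fold higher (limma, adjusted p = 2e-06). Cdh1, E-cadherin, was at 9.96, 8.95, 9.75, 10.23 and 8.26 on control arrays and between 5.67 and 6.20 on primary arrays (difference 3.51, limma, adjusted p = 0.000385). Array 5 was the lowest control array for both genes and for 20 of the 26 (76.9%, against 28.3% of all genes), and it stayed above every primary array for both.

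**Figure D3:**
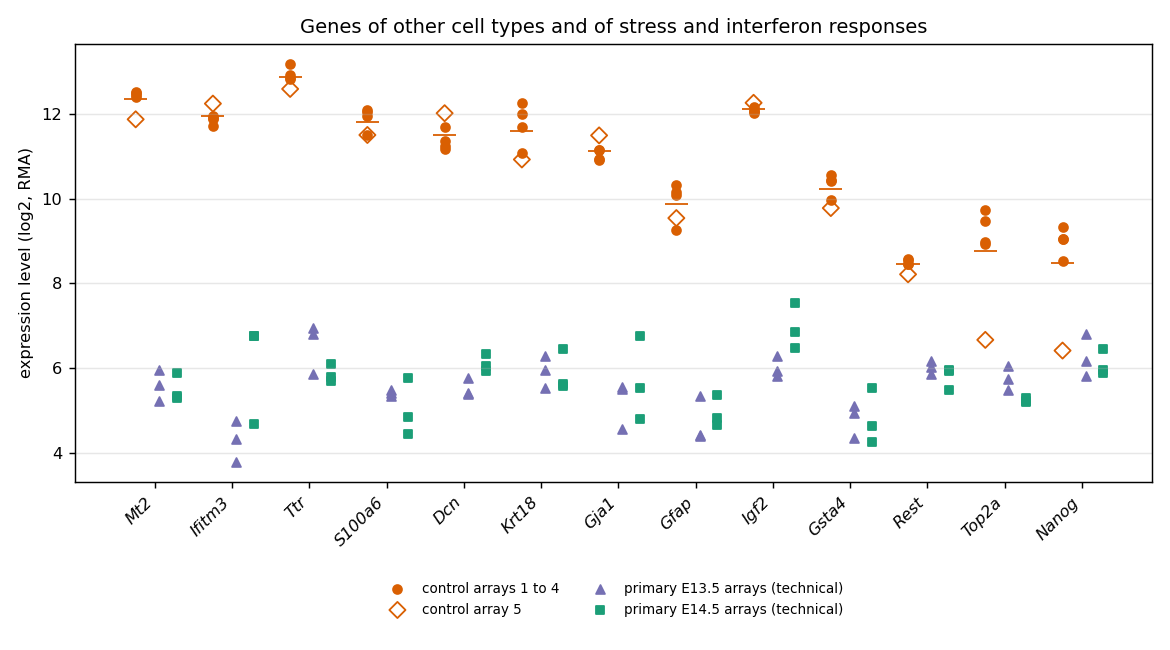
Log2 expression levels of 13 genes of other cell types and of stress and interferon responses on each array, with symbols as in the plot of dopaminergic genes. Control and primary arrays do not overlap for any of these genes but Nanog, where control array 5, at 6.42, lies among the primary arrays.

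Glial and progenitor genes were higher in part. In the astrocyte and radial glia list, 16 of 19 were called higher and 2 lower, with a median of 1.95. Gja1 (connexin 43), the gap junction protein of astrocytes that fibroblasts and other cells also make, was at 10.93, 11.15, 11.16, 10.91 and 11.49 on control arrays, against 5.56, 4.57 and 5.51 at E13.5 and 5.54, 4.79 and 6.77 at E14.5. The groups were more than 4 units apart, and the difference was 5.67 ± 0.20 (limma, adjusted p = 2.1e-09). Gfap, the intermediate filament of astrocytes, was at 9.26, 10.08, 10.31, 10.14 and 9.54 on control arrays and between 4.41 and 5.37 on primary arrays, 32.6-fold higher (limma, adjusted p = 1.28e-07). The lipid carriers Clu and Apoe differed by 4.09 and 4.03 (limma, adjusted p = 1.05e-07 and 4.77e-08), and the lower members were the glutamate transporter Slc1a2 and the factor Nfib, at -1.40 and -1.04 (limma, adjusted p = 0.000468 and 0.00367). Of 24 progenitor and Notch genes, 12 were called higher and 5 lower, with a median of 0.67. The inhibitor of differentiation Id3, the receptor Notch2 and its target Hes1 were higher by 3.38, 3.14 and 2.56 (limma, adjusted p = 6.32e-05, 6.94e-08 and 6.45e-06). Sox2, a factor of neural and pluripotent stem cells, was higher by 1.86 (limma, adjusted p = 0.00123). The Notch ligands Dll1 and Dll3 and the RNA-binding progenitor protein Msi1 were lower, at -0.94, -1.48 and -1.90 (limma, adjusted p = 0.00089, 3.35e-06 and 0.00021). Oligodendrocyte genes had 3 of 10 called higher and 1 lower, and their median changed sign with the scaling, between -0.15 and 0.04. The 3 were Pdgfra, which stromal cells also make, at 2.95 (limma, adjusted p = 5.07e-06), and Cnp and Mbp, both of myelin, at 1.24 and 1.07 (limma, adjusted p = 0.000147 and 0.00074).

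Cell cycle genes were higher on control arrays 1 to 4. With all arrays, 22 of 36 were called higher and 1 lower, with a median of 1.46. Top2a, a topoisomerase of dividing cells, was at 8.99, 9.73, 9.48, 8.94 and 6.67 on control arrays, against 6.06, 5.75 and 5.50 at E13.5 and 5.21, 5.23 and 5.30 at E14.5. Array 5 was more than 2 units below the other control arrays and 0.6 above the highest primary array (difference 3.25 ± 0.85, limma, adjusted p = 0.00899). Over 16 alternative settings, the mean of all its probe sets among them, the difference of Top2a ran from 1.59 to 3.78. Its call was lost in 1 of them. Mki67, the Ki-67 antigen of dividing cells, was at 6.55, 7.31, 7.58, 6.84 and 5.89 on control arrays and between 5.17 and 6.24 on primary arrays and did not pass (limma, adjusted p = 0.0909). It passed without array 5 (limma, adjusted p = 0.0347). Without control array 5 the list had 30 of 36 genes called higher and without arrays 1, 2, 3 or 4 in turn 14, 11, 12 and 14, while against E13.5 alone and against E14.5 alone 7 were called. The cell cycle inhibitors Cdkn2a and Cdkn2b, low in young tissue, were higher by 2.29 and 2.61 (limma, adjusted p = 4.68e-06 and 8.09e-06), and the 1 lower member was Cdkn1c, an inhibitor of neurons that leave the cycle, at -0.75 (limma, adjusted p = 0.0257).

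Pluripotency genes turned on the same array. Of 25 measured, 3 were called higher and 1 lower with all arrays, with a median of 0.80, and 14 were called higher without control array 5. For 24 of the 25 (96.0%, against 28.3% of all genes), array 5 was the lowest control array. Nanog, a core factor of pluripotent cells, was at 9.05, 9.32, 9.05, 8.52 and 6.42 on control arrays, against 5.82, 6.16 and 6.81 at E13.5 and 5.88, 5.96 and 6.46 at E14.5. Arrays 1 to 4 were above every primary array and array 5 among them, so that Nanog did not pass with all arrays (limma, adjusted p = 0.0502), and without array 5 its control level was 8.99 ± 0.34 (SD, n = 4) and it passed (limma, adjusted p = 0.0081). Pou5f1 (Oct4) had a difference of 2.07 that did not pass either with all arrays (limma, adjusted p = 0.117) and passed without array 5 (limma, adjusted p = 0.0322). Dppa5a, an RNA-binding protein of pluripotent cells, ran from 6.44 on array 5 to 11.23 on array 1 and passed only without array 5 (limma, adjusted p = 0.114 with it and 0.0249 without). The 3 called higher were Sox2, Klf5 and L1td1, the last with a difference of 1.66 (limma, adjusted p = 0.0416), and the lower one was Klf4 at -0.72 (limma, adjusted p = 0.0401). L1td1 was not called without any 1 of arrays 1 to 4 (limma, adjusted p = 0.0595 to 0.0753) and stayed called without array 5. Klf4 was not called without array 1, 2 or 5 (limma, adjusted p = 0.0652 to 0.0722).

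**Figure D4:**
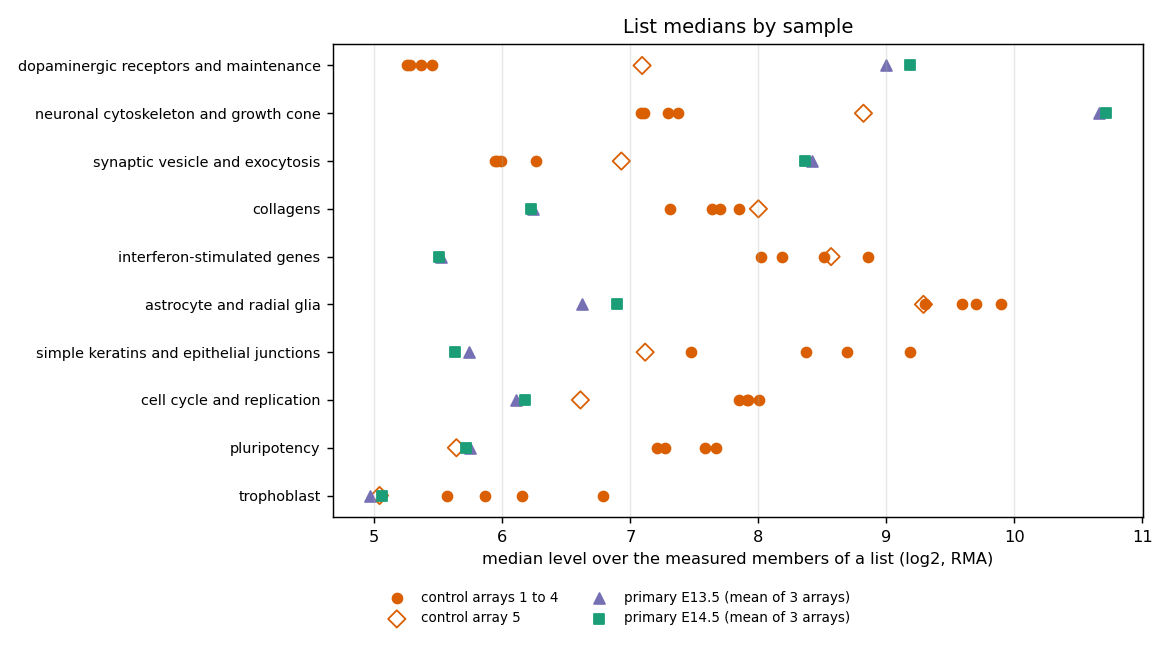
Median log2 level over the measured members of 10 gene lists on control arrays 1 to 4 (orange dots), control array 5 (open diamonds) and the mean of the 3 arrays of E13.5 (triangles) and E14.5 (squares). Array 5 lies on the primary side of the other control arrays for neuronal and dopaminergic lists and for cell cycle, pluripotency, keratin and trophoblast lists, and on the far side for collagens.

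Some genes of the trophoblast, choroid plexus and endoderm, and muscle lists were higher in control cells. In the trophoblast list, 5 of 14 were called higher and 0 lower, with a median of 1.02: the homeobox genes Rhox9 and Rhox6 and the placental protease Ctsj differed by 5.25, 4.43 and 4.68 (limma, adjusted p = 2.7e-06, 9.63e-06 and 0.000237), and the factor Tfap2c by 2.27 (limma, adjusted p = 0.00437). The factor Hand1, at 1.84, passed by a narrow margin and did not pass without array 1, 3 or 4 (limma, adjusted p = 0.0792 to 0.0887). Rhox9 was at 11.72, 10.70, 11.45, 11.98 and 10.57 on control arrays and between 4.97 and 6.74 on primary arrays, with arrays 2 and 5 the lowest. In the choroid plexus and endoderm list, 6 of 20 were called higher and 2 lower, with a median of 0.26. The lower count was 1 without control array 2, 3 or 5 and 6 with arrays centred on the median. Ttr (transthyretin), the thyroid hormone carrier of choroid plexus and of endoderm, was at 13.17, 12.85, 12.92, 12.82 and 12.58 on control arrays, 6.94, 5.87 and 6.81 at E13.5 and 5.70, 5.80 and 6.09 at E14.5, 102-fold higher (limma, adjusted p = 4.3e-10). The choroid plexus genes Kcnj13, Folr1 and Clic6 were higher by 2.18, 2.17 and 2.03 (limma, adjusted p = 0.0025, 0.00121 and 0.000357). Of 22 muscle genes 7 were called higher and 0 lower, led by the smooth muscle actin Acta2 at 3.61 (limma, adjusted p = 2.35e-06), with a median of 0.65. Fitting the control and primary samples alone gave 12, and without the arrays numbered 5 there were 11.

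Lens genes, of a tissue in which Pitx3 is also active, were called higher at about the share of all genes. Of 10 measured, 2 were called higher and 0 lower, beside 19.3% and 22.5% of all genes. With arrays centred on the median, 3 were called lower. The higher ones were Cryab, a chaperone crystallin made in many tissues, at 4.67 (limma, adjusted p = 3.63e-06) and the factor Maf at 0.67 (limma, adjusted p = 0.00707), and the list's median lay between -0.26 and 0.01 over the scalings. Among endothelial and pericyte genes 4 of 13 were called higher and 2 lower, the latter being 5 with centring: Cdh5, VE-cadherin, was at 8.87, 8.51, 8.50, 8.85 and 9.40 on control arrays and between 5.12 and 5.87 on primary arrays (difference 3.27, limma, adjusted p = 3.03e-06), and the pericyte gene Rgs5 was lower, at -1.12 (limma, adjusted p = 0.00043). Neural crest and melanocyte genes had 3 of 13 called higher (23.1%, against 19.3% of all genes) and 0 lower, led by the endothelin receptor Ednrb at 3.36 (limma, adjusted p = 2.69e-05). Their median changed sign with the scaling, between -0.09 and 0.09.

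Blood and microglial markers were, where called, mostly higher in primary cells. In the microglia and macrophage list, 8 of 15 were called lower in control cells and 2 higher, with a median of -0.33. C1qb, a complement gene of microglia, was at 5.52, 4.77, 5.29, 5.24 and 5.39 on control arrays, 5.52, 6.08 and 6.34 at E13.5 and 8.60, 6.88 and 6.06 at E14.5 (difference -1.34, limma, adjusted p = 0.00148). Its level on the first E14.5 array, 8.60, stood above the other 2 technical arrays of that stage. The lysosomal protein Cd68 and the receptor Csf1r were the 2 higher ones, at 3.09 and 2.21 (limma, adjusted p = 3.32e-05 and 0.0256). Of 7 erythroid genes 3 were called lower and 0 higher, with a median of -0.42. The lower count depended on the setting, at 6 with quantile normalization run again, 7 with arrays centred on the median, 5 without the arrays numbered 5 and 0 without the lowest 25% of genes. The part of other cell types in the results above was not tested.

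Metallothioneins, small proteins that bind zinc and copper and that metals and stress induce, held the largest higher difference of all genes. Mt2 was at 12.51, 12.45, 12.49, 12.40 and 11.87 on control arrays, 5.96, 5.24 and 5.61 at E13.5 and 5.34, 5.29 and 5.89 at E14.5. Among control arrays array 5 was lowest, more than 5 units above the primary arrays, and the difference was 6.79 ± 0.20, or 111-fold (limma, adjusted p = 5.36e-10). Mt1 was at 11.80, 11.99, 11.76, 11.67 and 11.66 on control arrays, 6.69, 6.68 and 7.41 at E13.5 and 7.76, 7.21 and 7.82 at E14.5, 22.8-fold higher (limma, adjusted p = 1.13e-08), and Mt3, the form of the brain, was higher by 1.62 (limma, adjusted p = 0.000809). Of 12 genes of metallothioneins and zinc transport, 7 were called higher and 1 lower, with a median of 0.68. The lower one was Slc30a3, which loads zinc into synaptic vesicles, at -1.06 (limma, adjusted p = 0.00214). Metal response elements, bound by the zinc sensor Mtf1, share the letters TGCACNC or TGCGCNC. The 250 bases before the start of Mt2 and Mt1 (RefSeq, GRCm38.p6) are printed because both genes were higher, with matches on either strand in capitals.
Mt2, chr8:94172368-94172617 (plus strand): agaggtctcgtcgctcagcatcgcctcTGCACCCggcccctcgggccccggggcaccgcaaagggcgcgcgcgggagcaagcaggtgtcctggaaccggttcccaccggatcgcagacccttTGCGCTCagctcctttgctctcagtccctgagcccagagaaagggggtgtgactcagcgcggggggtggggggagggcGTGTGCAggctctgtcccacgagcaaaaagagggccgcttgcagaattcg
Mt1, chr8:94178839-94179088 (plus strand): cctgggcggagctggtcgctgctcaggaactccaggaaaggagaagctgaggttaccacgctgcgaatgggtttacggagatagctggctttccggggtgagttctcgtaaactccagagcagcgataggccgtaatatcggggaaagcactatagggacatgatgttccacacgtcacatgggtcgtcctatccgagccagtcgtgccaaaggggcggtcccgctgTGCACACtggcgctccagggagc
Within these bases Mt2 held 3 matches and Mt1 held 1, with no overlap between matches. Bases after the annotated start were not searched, so the counts are not those of the whole promoter. Of 32851 promoter windows of this length, 21.4% held at least 1 match and 1.26% at least 3. Of the 10 listed genes with a window, 8 held at least 1, each gene taken by its best window. Counted in the same way, 23.8% of all 27025 genes with a window did. A match is a description of letters, not a bound site.

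Interferon-stimulated genes were higher almost without exception. Of 25 measured, 24 were called higher (96.0%, against 19.3% of all genes) and 0 lower, with a median difference of 2.69, and the 5 control arrays lay above all 6 primary arrays for 24. Ifitm3, a membrane protein that blocks virus entry, was at 11.72, 11.90, 11.94, 11.88 and 12.24 on control arrays, 3.79, 4.76 and 4.33 at E13.5 and 4.69, 6.76 and 6.76 at E14.5. All control arrays were within 0.6 of each other, while the primary arrays ran from 3.79 to 6.76, and the difference was 6.75 ± 0.33, or 108-fold (limma, adjusted p = 3.04e-08). Ifit3, an antiviral protein of the IFIT family, was at 9.92, 10.36, 10.65, 10.84 and 11.13 on control arrays and between 4.95 and 5.43 on primary arrays (difference 5.33, limma, adjusted p = 2.25e-07), and Ifit1 differed by 4.40 (limma, adjusted p = 1.59e-06). B2m, the light chain of MHC class I, was at 11.96 ± 0.13 (SD, n = 5) in control cells and 7.23 and 7.91 at E13.5 and E14.5 (difference 4.39, limma, adjusted p = 3.91e-09), and Tap1, the peptide transporter of the same pathway, differed by 2.48 (limma, adjusted p = 1.53e-06). The interferon regulatory factors Irf7, Irf1 and Irf9 and the signal transducer Stat2 were higher by 2.89, 2.22, 1.38 and 1.60 (limma, adjusted p = 0.000268, 0.00027, 0.000391 and 0.00157). The gene without a call was Mx1, with a difference of 0.01 (limma, adjusted p = 0.956). Promoters of this class often hold the interferon-stimulated response element, searched here as 2 copies of GAAA with any 2 bases between them, on both strands. The windows of Ifit3 and Ifit1, both on chromosome 19, are printed because both genes were called higher.
Ifit3, chr19:34583279-34583528 (plus strand): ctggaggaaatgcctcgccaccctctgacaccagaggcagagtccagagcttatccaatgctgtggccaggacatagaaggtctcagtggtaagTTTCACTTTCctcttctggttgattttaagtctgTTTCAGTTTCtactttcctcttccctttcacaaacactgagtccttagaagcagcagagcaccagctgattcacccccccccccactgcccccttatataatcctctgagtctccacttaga
Ifit1, chr19:34640639-34640888 (plus strand): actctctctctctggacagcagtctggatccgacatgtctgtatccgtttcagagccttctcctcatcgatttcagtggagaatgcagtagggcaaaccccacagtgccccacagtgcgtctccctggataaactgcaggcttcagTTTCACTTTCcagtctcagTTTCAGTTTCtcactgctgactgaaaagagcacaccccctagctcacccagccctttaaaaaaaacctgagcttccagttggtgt
Each held 2 matches, in capitals, which did not overlap. Of all 32851 windows of 250 bases, 2.98% held at least 1 match and 0.18% at least 2. Of the 20 listed genes with a window, 8 held at least 1 and 4 at least 2, each gene taken by its best window. Counted in the same way, 3.46% of all 27025 genes with a window held at least 1. Ifitm3, with the largest difference, held none in these bases, which says nothing of the factors that act on it.

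Genes of glucose use and of the hypoxia response were higher while those of the respiratory chain were near the primary level. Of 32 hypoxia and glycolysis genes, 23 were called higher and 1 lower, with a median of 1.79. Slc2a1, the glucose transporter GLUT1, was at 11.44, 11.02, 11.20, 11.59 and 10.72 on control arrays, 7.36, 7.81 and 7.42 at E13.5 and 8.24, 7.41 and 7.32 at E14.5, 12.2-fold higher (limma, adjusted p = 7.7e-07). Epas1, which encodes the hypoxia factor HIF-2 alpha and is prominent in endothelium, was at 9.24, 8.54, 9.94, 10.31 and 7.84 on control arrays and between 5.24 and 5.71 on primary arrays (difference 3.67, limma, adjusted p = 0.00197). The collagen prolyl hydroxylase P4ha2, the oxygen sensor Egln3 and the lactate dehydrogenase Ldha differed by 3.39, 3.11 and 2.13 (limma, adjusted p = 1.84e-08, 1.75e-05 and 5.54e-06). Of 41 genes of oxidative phosphorylation, 6 were called higher and 4 lower, below the shares over all genes, and none of the 10 by 2-fold. Without 1 of control arrays 1, 2, 4 and 5 in turn, 1 or 2 were called lower in place of 4. The median of that list, 0.10, turned to -0.09 with arrays centred on the median, where 3 were called higher and 11 lower. Cox6c, a subunit of cytochrome c oxidase, had the largest higher difference among them, 0.54 (limma, adjusted p = 0.00124).

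Oxidant defence and cholesterol synthesis moved in opposite directions. Of 33 genes of glutathione and oxidant defence, 25 were called higher and 2 lower, with a median of 1.13. Nfe2l2 (Nrf2), the factor that drives many of them, was at 10.37, 10.58, 10.47, 10.59 and 10.49 on control arrays, 6.43, 5.12 and 5.86 at E13.5 and 7.71, 5.97 and 6.13 at E14.5 (difference 4.30, limma, adjusted p = 3.89e-09). The control arrays were within 0.3 of each other, and 1 E14.5 array, at 7.71, stood above the other primary arrays. The glutathione transferase Gsta4 differed by 5.42, the secreted peroxidase Gpx3 by 4.60 and the heme oxygenase Hmox1 by 3.07 (limma, adjusted p = 1.77e-08, 2.35e-07 and 2.05e-05). Txnip, the inhibitor of thioredoxin that responds to glucose, was among the 12 largest higher differences, at 5.46 (limma, adjusted p = 1.2e-10). Of 19 genes of cholesterol synthesis, 18 were called lower and 0 higher (94.7%, against 22.5% of all genes), with a median of -1.20. Idi1, the isomerase that makes the isoprenoid building blocks, was at 6.10, 6.80, 6.49, 6.60 and 5.77 on control arrays, 8.89, 8.99 and 8.94 at E13.5 and 8.85, 8.72 and 8.55 at E14.5 (difference -2.47, limma, adjusted p = 4.24e-05), with control arrays below every primary array. Hmgcs1, an early enzyme of the route, was at 7.91, 8.27, 8.48, 8.49 and 8.70 on control arrays and between 10.08 and 10.50 on primary arrays (difference -1.89, limma, adjusted p = 1.84e-05), and Srebf2, the factor that drives the genes, was lower, at -0.91 (limma, adjusted p = 0.00443).

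Secreted growth factor genes were higher for the insulin-like growth factor system. Of 14 genes, 8 were called higher and 1 lower, with a median of 1.66. Igf2, an imprinted growth factor of embryonic mesoderm and placenta, was at 12.07, 12.01, 12.16, 12.06 and 12.26 on control arrays, 5.82, 5.93 and 6.28 at E13.5 and 6.86, 6.47 and 7.54 at E14.5, 49.5-fold higher (limma, adjusted p = 1.31e-09). The binding proteins Igfbp7 and Igfbp4 differed by 4.43 and 3.84 (limma, adjusted p = 1.15e-06 and 2.36e-05), and the lower one was the insulin receptor Insr at -0.57 (limma, adjusted p = 0.00863).

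Wnt genes were mixed in cells that had received no Wnt protein. Of 44 Wnt ligands, receptors and modulators, 15 were called higher and 5 lower, with a median of 0.15 that turned to -0.04 with arrays centred on the median. Without control array 2 or 4, 3 were called lower, and with that centring 13. Among ligands, Wnt5a, a non-canonical Wnt of the ventral midbrain, was lower, at -1.34 (limma, adjusted p = 0.0439), with array 5 at 8.68 inside the primary range. It did not pass without any 1 of arrays 1 to 4 (limma, adjusted p = 0.0618 to 0.0795) and still passed without array 5. Wnt1, the ligand of the midbrain border that the study supplied to its treated cultures, was at 4.09 ± 0.12 (SD, n = 5) in control cells and at 4.38 and 4.22 at the stages, and did not pass (limma, adjusted p = 0.134). Among receptors, Fzd7 and the Dickkopf receptor Kremen1 were higher by 1.87 and 1.98 (limma, adjusted p = 9.42e-06 and 1.3e-05). Dkk3, whose protein the study also supplied, was at 6.93, 7.46, 7.18, 7.01 and 7.60 on control arrays, 6.21, 5.87 and 6.20 at E13.5 and 6.23, 6.57 and 6.03 at E14.5 (difference 1.05, limma, adjusted p = 0.00458). Of 16 target and feedback genes of beta-catenin, 6 were called higher and 1 lower, with a median of 0.07 that turned to -0.12 with centring. Axin2, a feedback inhibitor, was at 8.63, 8.49, 8.73, 8.34 and 8.85 on control arrays and between 7.07 and 7.70 on primary arrays (difference 1.23, limma, adjusted p = 0.000276), and the repressor Tcf7l1 of pluripotent cells differed by 2.49 (limma, adjusted p = 3e-06).

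Immediate early genes, which neurons switch on within minutes of activity or of handling, went both ways. Of 20, 7 were called higher and 5 lower, with a median of -0.19, and 4 were called higher without control array 4. Npas4, a factor specific to active neurons, was at 5.05, 4.76, 5.09, 4.82 and 4.74 on control arrays, 7.63, 7.65 and 6.90 at E13.5 and 8.18, 8.45 and 8.35 at E14.5 (difference -2.97, limma, adjusted p = 3e-07), and Fosb was lower, at -1.72 (limma, adjusted p = 0.0298). Array 5, at 9.91, reached the lowest primary arrays for Fosb, which did not pass without array 2, 3 or 4 (limma, adjusted p = 0.0516 to 0.0571). Ier3, a stress gene of many cell types, was higher by 3.71 (limma, adjusted p = 1.66e-07).

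Among ligands and receptors of the GDNF and neurotrophin families, 4 of 16 were called lower and 2 higher, with a median of -0.11, the lower ones being Ret, Gfra1, Gfra2 and Bdnf, and with arrays centred on the median 9 were called lower. Bdnf differed by -0.84 (limma, adjusted p = 6e-04) and Gfra2 by -1.70 (limma, adjusted p = 0.00222). Of 13 measured genes of familial parkinsonism, 5 were called lower (38.5%) and 4 higher (30.8%), with a median of -0.03, and 2 were called higher without control array 1 or 2. Dnajc6 (auxilin), which uncoats synaptic vesicles, was at 6.82, 6.47, 6.59, 6.23 and 7.67 on control arrays and between 9.47 and 10.46 on primary arrays (difference -3.33, limma, adjusted p = 0.000232). The kinase Lrrk2 was at 6.34, 6.45, 6.35, 5.82 and 6.27 on control arrays, 5.07, 5.13 and 5.25 at E13.5 and 4.94, 4.99 and 4.88 at E14.5 (difference 1.20, limma, adjusted p = 5.93e-05), with no overlap. Over 16 alternative settings, the mean of all its probe sets among them, the difference of Lrrk2 ran from 0.48 to 1.31 and its call was kept. The mitochondrial kinase Pink1 was higher by 0.49 (limma, adjusted p = 0.0332), a call that was lost without array 1 or 2 (limma, adjusted p = 0.0538 and 0.0618).

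The 2-fold differences had the same direction against each embryonic stage, while fewer genes were called. All 2114 genes called higher by 2-fold or more, and all 1577 called lower, had the same sign against E13.5 and against E14.5 alone. These genes were chosen by their difference from the mean of both stages, and few differed by 1 or more between stages. The shared sign was thus nearly set in advance and is no separate support. Against E13.5 alone, 2680 genes were called higher (13.4%) and 2847 lower (14.3%), and against E14.5 alone 2631 (13.2%) and 2743 (13.8%). In these fits the lone primary sample is taken to vary like the iPSC-derived groups. Of the 3855 higher genes 2248 were called against both stages, and of the 4491 lower genes 2126. The stages differed by 1 or more for 11 of the 2114 and for 27 of the 1577 genes, with no test between stages. Of the 158 genes named here and in the closing section with a call, 26 were not called against E13.5 alone and 23 not against E14.5 alone. Slc6a3 was among both. Ifitm3, at 4.29 in E13.5 and 6.07 in E14.5, and Gli3, at 6.94 and 5.58 against 7.91 ± 0.14 (SD, n = 5) in control cells, differed by more than 1 between the stages and were called against each.

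**Figure D5:**
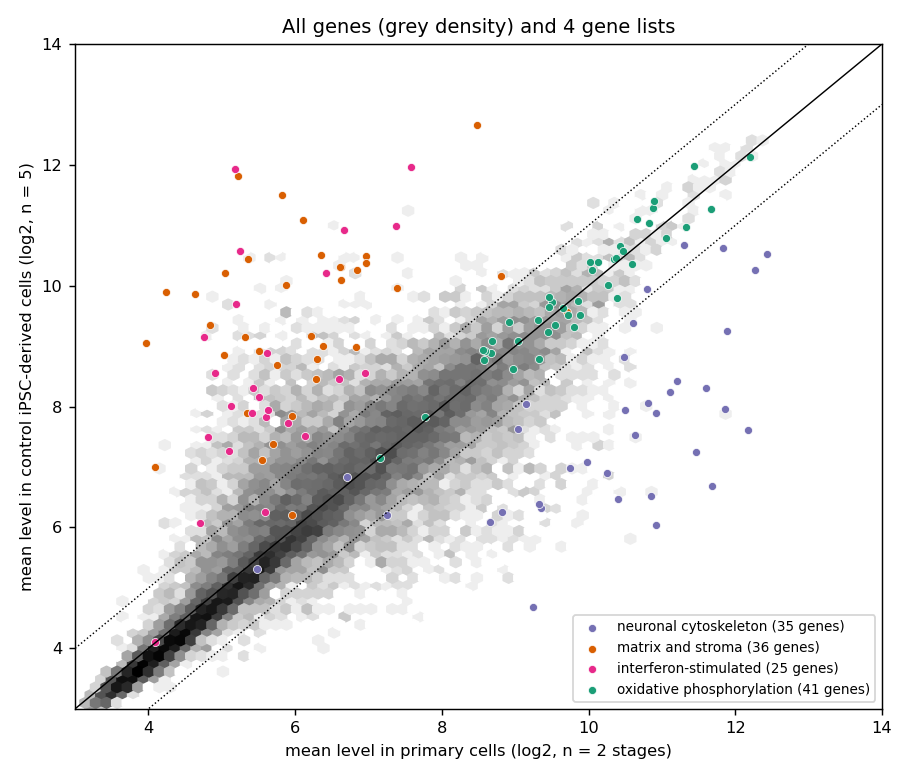
Mean log2 level of each gene in control cells (vertical axis, n = 5 arrays) against primary cells (horizontal axis, mean of n = 2 stages), as a grey density with 4 gene lists as coloured points; the solid line marks equal levels and the dotted lines a difference of 1. Of the neuronal cytoskeleton genes 31 of 35 lie below the lower dotted line, 34 of 36 matrix and 23 of 25 interferon-stimulated genes lie above the upper one, and all 41 oxidative phosphorylation genes lie between them.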

How the data were processed

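Gene expression was measured on 16 Affymetrix arrays, of which 11 enter the comparison. The authors deposited log2 values of 35556 probe sets. Per the submitters' processing notes, RMA and Affymetrix Expression Console 1.2 were used, and a single run for all arrays is not stated. RNA was, per the labels' protocols, amplified with Ovation PicoSL WTA V2. After quantile steps levels are relative, and the files hold no background call, so dim genes have only a level. Array medians lay between 5.85 and 6.02. Their number limits the precision.

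Probe sets with 1 gene symbol in the platform table (21789) were used, symbols were updated through Entrez IDs with RefSeq (GRCm38.p6), and the probe set with the highest mean stood for a gene, giving 19938 genes. Technical arrays were averaged per stage. limma 3.58.1 in R 4.3.3 was fitted to 12 samples (5 control, 2 primary and, for the spread only, 5 treated) with 9 residual degrees of freedom and Benjamini-Hochberg adjustment over all genes. The code was tested on simulated data. Gene lists (40, with 874 measured genes) are described by counts. The members and lists were chosen with earlier results of these data known. Named genes are the 12 with the largest non-overlapping difference per direction or members of a list, mainly the largest and the defining markers, 9 dopaminergic genes always, and the 10 most variable among control arrays. Alternatives covered samples, stages, replicates, scaling, filters and probe sets.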

Additional observations from a re-analysis of the deposited data

Results flagged for a closer look

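On 1 control array a gene could stand far from the other 4, and among 172 named genes this held for 24. The rule flags about 1 in 20 groups of independent values by chance. That rate is no measure for this count. Some genes were named for their spread over these arrays, and the lists were chosen with earlier results known. The flagged genes also mostly share 1 array. Array 5 stood apart for 22 of the 24. It was high for 16 genes. Of the dopaminergic genes, Th was at 8.52 on array 5, Ddc at 7.67, Slc18a2 at 7.44, Slc6a3 at 8.44, En2 at 7.39, En1 at 7.13 and Nr4a2 at 8.67. Slc10a4 was at 7.20, Ret at 7.86, Gfra1 at 7.99, Gfra2 at 7.29, Slc17a6 at 6.39, Chrnb3 at 7.54 and Aldh1a1 at 8.98. The RNA-binding gene Elavl4 was at 6.69 and the glutamate receptor gene Gria2 at 6.67. The next highest control array was at 6.17 for Th and at 5.27 for Slc6a3.

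Array 5 was low for the other genes it set apart. Of these, the pluripotency genes Nanog, Pou5f1 and Fbxo15 were at 6.42, 4.68 and 4.58, and the cell cycle gene Top2a at 6.67. Klf5, a factor of stem cells and epithelia, was at 8.48, and Mt2 at 11.87. Array 3 was high for Smo, at 8.27, and array 4 low for Lrrk2, at 5.82. What sets array 5 apart was not tested.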

How the results depend on the processing

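The counts of higher and lower genes over the whole array, with and without the 2-fold limit, stayed within 1.5 times their value under most of 17 alternatives. The exceptions were the 4491 lower genes, which became 2847 with E13.5 alone, 2743 with E14.5 alone and 8833 with arrays centred on the median, and the 1577 genes lower by 2-fold or more, which became 2516 over all 35556 probe sets. A lone primary sample leaves fewer samples, and centring moved the median of all genes by -0.19; other causes were not tested. Leaving out each control replicate gave 3566 to 4129 higher and 4028 to 4442 lower genes, and 2026 to 2286 higher and 1547 to 1628 lower by 2-fold or more. Control and primary samples share no pairing. With the number of control and treated arrays as a replicate block (correlation 0.381), the counts were 3971 higher and 4354 lower, 2174 and 1580 of them by 2-fold or more, and 4 named genes without a call gained one. Without both arrays numbered 5 the counts were 4489 and 4705, with 8028 calls shared with all arrays. Of 80 counts over gene lists, in 40 lists and both directions, 36 stayed within 1.5 times under all 16 alternatives run on lists. Of the others, 25 moved against E13.5 alone, 22 against E14.5 alone and 18 with centring.

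Of 158 named genes with a call, 126 kept it in all 16 alternatives. The sign changed for 2: Unc13a was at -1.06 with the mean of its probe sets, and Mx1, without a call, at -0.087 against E13.5 alone, at -0.074 to 0.056 with a control replicate left out and at -0.18 with centring; the cause was not tested. The amplified RNA and the 2 primary samples limit all values, and low levels have no detection call.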

Other observations

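The genes that varied most between the 5 control arrays belonged to 3 kinds of tissue and split the arrays in different ways. By the SD over control arrays the 10 most variable genes were Gkn2, Dppa5a, Ctsq, Fbxo15, S100g, Prl8a9, Pga5, Dppa3, Prl2c5 and Prl2a1, with SDs between 1.62 and 2.26 on the log2 scale, against a median SD of 0.189 over all genes. Gkn2, a gastrokine of the stomach lining, was at 4.73, 5.00, 8.26, 9.40 and 4.60 on control arrays 1 to 5, and Pga5, a pepsinogen of the stomach, at 5.53, 5.38, 8.42, 8.63 and 5.30. S100g, a calcium-binding protein of gut and placenta, was at 7.23, 6.40, 9.57, 9.33 and 5.65. These 3 genes were highest on arrays 3 and 4, and their levels on arrays 2 and 5 were less than 1 unit above the primary means of both stages. Their differences from primary cells did not pass (limma, adjusted p = 0.315, 0.367 and 0.224).

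The placental genes had another order. Prl8a9, a prolactin-like hormone gene of the placenta, was at 10.49, 9.19, 10.63, 11.09 and 6.81 on control arrays, with array 4 highest and array 5 lowest, and it was higher than in primary cells by 4.58 (limma, adjusted p = 0.00777). Prl2c5 and Prl2a1, of the same family, were at 8.70, 6.86, 8.24, 9.52 and 5.42 and at 9.75, 7.87, 9.95, 10.70 and 6.80 (limma, adjusted p = 0.0456 and 0.0185). Prl2c5 did not pass without any 1 of arrays 1 to 4 (limma, adjusted p = 0.0517 to 0.0824) and still passed without array 5. Ctsq, a placental protease, was at 9.10, 5.79, 6.69, 8.66 and 4.60 and did not pass with all arrays (limma, adjusted p = 0.0616) but did without array 5 (limma, adjusted p = 0.016). Genes of pluripotent cells had yet another order, highest on array 1 or 2 and lowest on array 5. Fbxo15 was at 8.78, 8.85, 8.33, 7.64 and 4.58 (limma, adjusted p = 0.0485), Dppa3 at 8.32, 8.85, 7.88, 7.32 and 4.56 (limma, adjusted p = 0.0821) and Dppa5a at 11.23, 11.18, 10.41, 9.48 and 6.44 (limma, adjusted p = 0.114). Fbxo15 was called with all 5 arrays and not without any 1 of arrays 1 to 4 (limma, adjusted p = 0.0714 to 0.0871), and it stayed called without array 5. Dppa3 was called without array 5 (limma, adjusted p = 0.0124). These genes were named by their SD over the same arrays, so their spread is a description. Its source was not tested.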
